A study of Citrus sinensis with 30 samples.

Results

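The genes described here encode the enzymes of the citrate cycle, as the protein names of the deposited table give them. A gene was a member when its name held citrate synthase (ATP-citrate forms excepted), aconitate hydratase, isocitrate dehydrogenase, 2-oxoglutarate dehydrogenase, succinyl-CoA ligase, succinate dehydrogenase, fumarate hydratase, malate dehydrogenase or pyruvate dehydrogenase E1. This gave 16 of the 24179 genes. The rule reads names and no measured value, though it was set with earlier results of these data known. Of these, 13 reached 1 FPKM (fragments scaled by transcript length and by library size) in at least 3 libraries and could be tested, as did 16578 genes in all. Of the 9 search terms, 8 found at least 1 gene: citrate synthase 1, aconitate hydratase 1, isocitrate dehydrogenase 2, 2-oxoglutarate dehydrogenase 2, succinyl-CoA ligase 2, succinate dehydrogenase 2, malate dehydrogenase 4 and pyruvate dehydrogenase E1 2. Fumarate hydratase found 0.

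The juice sacs came from a pair of Citrus sinensis varieties, the anthocyanin-rich blood orange 'Tarocco' (TBO) and the low-acid sweet orange 'Bingtangcheng' (BTSO). Mature fruit of both varieties were bagged singly in polyethylene and kept in cool storage, and RNA was sequenced on 5 days, given as days after storage (DAS): 0, 15, 30, 60 and 90. Each variety and day had 3 biological replicates, which gave 10 groups and 30 libraries. Each library was made from the juice sacs of several pooled fruit, 0 DAS served as the baseline, so that storage and fruit age cannot be told apart.

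The citrate cycle, in the mitochondrial matrix, oxidises acetyl groups to CO2. Pyruvate dehydrogenase supplies the acetyl-CoA, citrate synthase joins it to oxaloacetate, aconitase turns citrate into isocitrate, and a series of dehydrogenases returns the carbon to oxaloacetate. In citrus juice sacs citrate is also stored in the vacuole as the main acid of the fruit, and cytosolic aconitase and NADP-dependent isocitrate dehydrogenase are known as steps through which stored citrate can be used. Plant cells hold further forms of several of these enzymes in plastids, the cytosol and peroxisomes, some of which serve other pathways.

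Totals of the estimated counts ran from 51894138 to 75833189 per library, and libraries of 1 group correlated across genes with r between 0.969 and 0.985. The glutathione S-transferase Cs6g15900 of the anthocyanin route, used to check the variety labels, lay between 174 and 891 FPKM in TBO and between 0.268 and 4.33 in BTSO. Markers of other material were summed per library. The 7 green tissue genes gave 30.0 to 41.5 FPKM at 0 DAS and 16.8 to 21.8 at 90 DAS, and the 5 seed genes gave 12.2 to 27.8 over all libraries. The seed sums were lower in TBO without overlap at 0 DAS (12.2 to 16.1 against 17.4 to 19.6), 30 DAS (16.7 to 20.7 against 25.1 to 25.8) and 90 DAS (12.9 to 17.2 against 17.9 to 27.8). The oleosin orange1.1t03751 was called lower in TBO at 0, 15, 30 and 90 DAS. The low oleosin Cs9g13650 was called higher at 15, 30 and 60 DAS, and Cs1g23800 at 15 DAS. The 8 laccase and xylem protease genes, which mark lignified tissue, gave 3.62 to 8.36 FPKM in TBO and 8.63 to 36.6 in BTSO at 15 DAS, 4.6 to 18.2 FPKM in TBO and 37.9 to 52.8 in BTSO at 30 DAS, and 17.7 to 22.3 against 33.2 to 67.9 at 60 DAS, with 2 to 4 of the 8 at 0 in every library of a group. Most of each of these sums came from a single laccase, Cs6g07400, with BTSO means of 18.0, 43.5 and 46.5 FPKM at 15, 30 and 60 DAS. The labelled tissue itself was not checked against markers of its own. In bulk tissue, fewer cells of a type and less RNA per cell cannot be told apart, and this holds for every difference below.

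**Figure D1:**
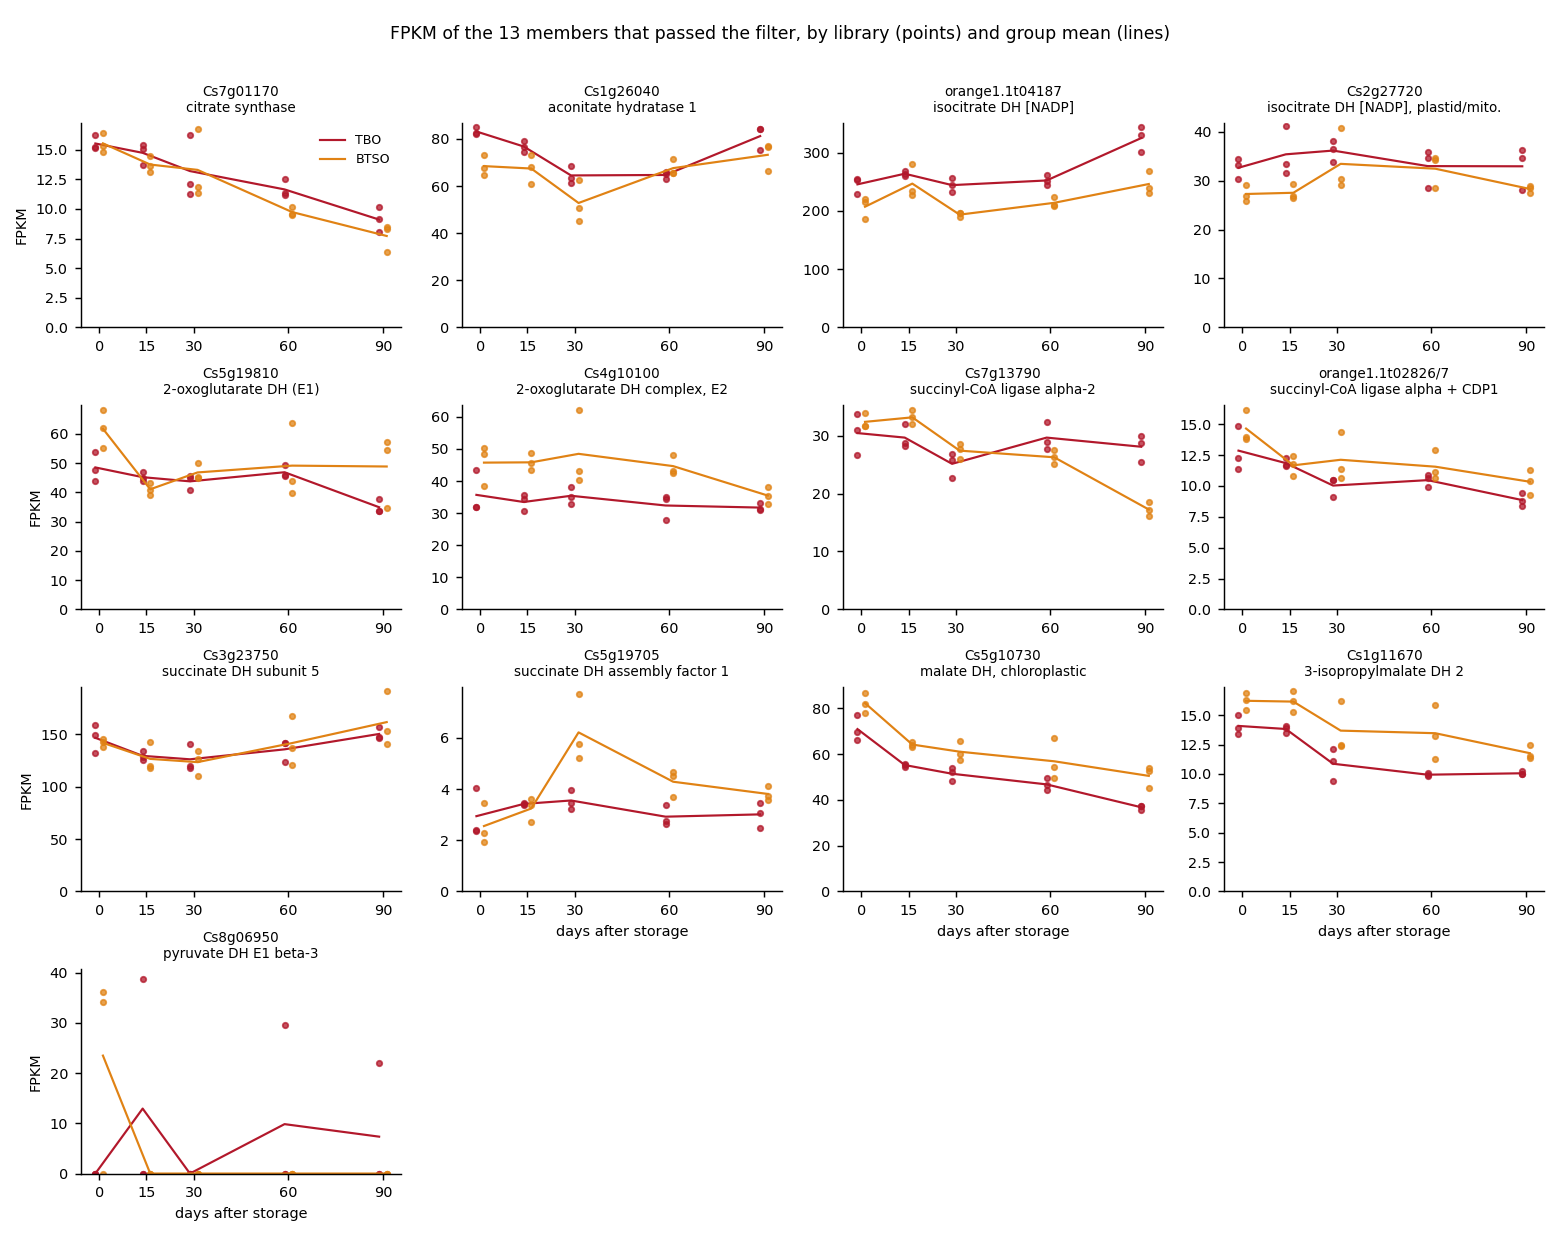
FPKM (y axis, from 0) against days after storage (x axis) for the 13 citrate cycle genes tested. Points are single libraries, 3 per variety and day, and lines join the group means. Cs7g01170 and Cs5g10730 decline in both varieties, Cs7g13790 separates the varieties at 90 DAS, and Cs8g06950 is at 0 in 25 of the 30 libraries.

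The members spanned a wide range of levels. The NADP-dependent isocitrate dehydrogenase orange1.1t04187 was the most expressed, with a mean of 243.7 FPKM over the 30 libraries, above 99.0% of the genes tested. Next came succinate dehydrogenase subunit 5 (Cs3g23750, 138.3 FPKM), aconitate hydratase 1 (Cs1g26040, 70.0 FPKM) and the chloroplastic malate dehydrogenase Cs5g10730 (57.6 FPKM). Citrate synthase Cs7g01170 averaged 12.4 FPKM, above 63.8% of the genes tested. The least expressed of the 13 was succinate dehydrogenase assembly factor 1 (Cs5g19705), at 3.6 FPKM.

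The other 3 members were too low to test. Cs5g01270, a pyruvate dehydrogenase E1 alpha-3 subunit named after a soybean protein, lay between 0 and 1.3 FPKM and reached 1 FPKM in 2 libraries. The glyoxysomal malate dehydrogenase Cs8g03230 did not exceed 0.117 FPKM. The glyoxysomal-like form orange1.1t04273 was above 0 in 1 library, the first TBO replicate at 90 DAS (0.130 FPKM). It was the only member with a position in the table, on the minus strand of the unplaced sequence set (Un) from 66900426 to 66901322, in a build that the table does not name.

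Some members are no enzymes of the mitochondrial cycle. Cs1g11670 is a 3-isopropylmalate dehydrogenase of leucine synthesis and matched only through part of its name. Cs5g19705 is an assembly factor, not a subunit. The locus orange1.1t02826/orange1.1t02827 joins a succinyl-CoA ligase alpha subunit with its neighbour, a plastid division protein, so its level belongs to both. Cs5g10730 and Cs8g06950 carry chloroplastic names, and Cs2g27720 is named as chloroplastic or mitochondrial.

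TBO and BTSO were compared on each day, to see whether the enzymes around citrate differed between the blood orange and the low-acid sweet orange. Differences were tested with limma on log2(FPKM + 1) over all 30 libraries, a scale that understates the change of low genes, and a gene was called when its Benjamini-Hochberg adjusted p over the 16578 genes was under 0.05. From 0 to 90 DAS, 4, 2, 6, 5 and 4 of the 13 members differed. Among all genes tested 47.1%, 51.5%, 52.6%, 51.0% and 52.8% differed on these days, a larger share than among the members on each day. Members higher in TBO numbered 2, 1, 2, 1 and 2, where 27.2%, 34.2%, 30.3%, 28.1% and 32.3% of all genes were higher. Members lower in TBO numbered 2, 1, 4, 4 and 2, where 20%, 17.3%, 22.3%, 22.8% and 20.4% of all genes were lower.

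The split and the share called depended on the scaling. From 0 to 90 DAS, the members higher and lower in TBO were 2 and 6, 0 and 4, 2 and 5, 1 and 4, and 2 and 4 under quantile normalization, where 24.5%, 26.6%, 28.2%, 25.7% and 27.7% of all genes were higher and 23.2%, 24.1%, 26.2%, 28.2% and 26.8% lower. They were 0 and 7, 0 and 4, 0 and 6, 0 and 4, and 2 and 4 under upper-quartile scaling, where 20.9% to 27.9% of all genes were higher and 25.1% to 29.6% lower. With edgeR and with DESeq2 they were 0 and 5, 0 and 4, 2 and 5, 0 and 4, and 2 and 4, where 24.2% to 27.9% of all genes were higher and 25.7% to 27.2% lower. At 0 DAS the members called then exceeded the background, with 8 of 13 (61.5%) beside 47.6% under quantile normalization and 7 of 13 (53.8%) beside 48.8% under upper-quartile scaling, and at 30 DAS edgeR called 53.8% of the members beside 53.7% of all genes.

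The differences were small. Of the 65 differences of 13 members on 5 days, 59 were under 0.5 on the log2 scale, with a median standard error of 0.119. Only Cs8g06950 exceeded 1, and under the combined limit of an unadjusted p below 0.05 and a log2 difference over 1 it was the only call, at 0 DAS, where 7.93% of all genes passed. That limit gave 0 members on the other days, when 8.95%, 10.8%, 11.4% and 10.9% of all genes passed. The median member difference was -0.09, 0.07, -0.09, -0.05 and -0.09 from 0 to 90 DAS, beside medians of 0.06, 0.13, 0.06, 0.03 and 0.08 over all genes tested.

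No member was called on all 5 days, whereas 21.8% of all genes tested were; by limma 1 member had an unadjusted p under 0.05 on every day, and edgeR and DESeq2 on the estimated counts each called 2. On at least 1 day 10 members were called, beside 83.6% of all genes. The 3 replicates of one variety lay wholly above or below those of the other for 6 of 13 members at 0, 15, 30 and 60 DAS and for 5 at 90 DAS, beside 55.5%, 60.9%, 57.1%, 57.6% and 59.8% of all genes. Only Cs1g11670, of leucine synthesis, was separated in this way on every day, as were 23.7% of all genes.

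**Figure D2:**
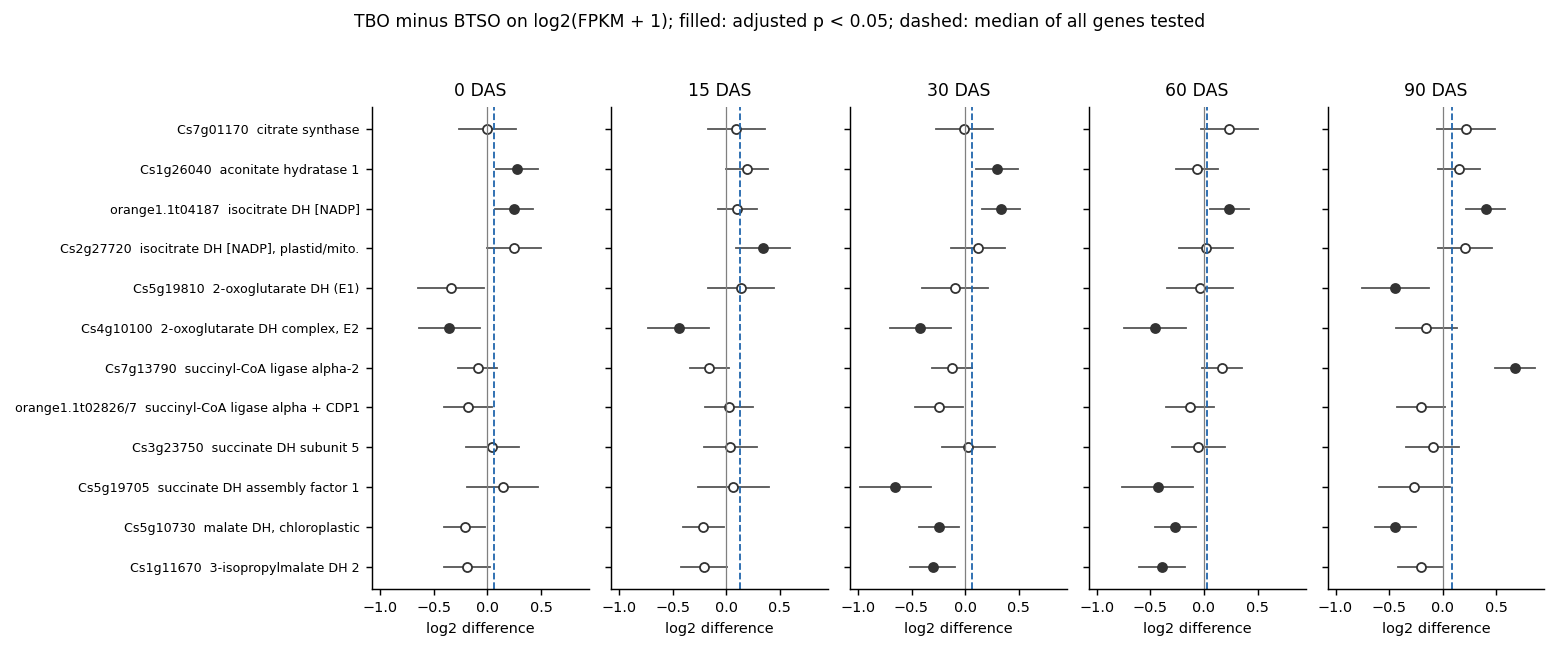
Difference between TBO and BTSO on the log2(FPKM + 1) scale (x axis) for 12 citrate cycle genes (y axis) at each storage day, with the 95% interval of the limma fit. Filled points were called (adjusted p under 0.05), the dashed line is the median of all genes tested, and Cs8g06950 is left out because its interval runs off the scale. Most points lie within 0.5 of 0, and the largest difference drawn on this scale is that of Cs7g13790 at 90 DAS (0.67).

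Pyruvate dehydrogenase E1 decarboxylates pyruvate before the cycle, and its 1 testable member was listed as on or off. Cs8g06950, a chloroplastic beta-3 subunit, was listed at 0 FPKM in 25 libraries. It stood at 34.2, 36.2 and 0 FPKM in the 3 BTSO libraries of 0 DAS, and at 38.8 FPKM in TBO replicate 3 at 15 DAS, 29.5 in replicate 2 at 60 DAS and 22.0 in replicate 3 at 90 DAS. Replicates of 1 group were thus split between 0 and a high level, and no comparison separated the varieties. The estimated counts behind the 5 positive values were 1525 to 2818. Of all genes tested, 3 (0.0181%) were at 0 in at least 20 libraries and above 20 FPKM in another. A 0 of this kind can be a failed estimate of the assembly, so no fold is given, and its calls (adjusted p = 0.0413 between the varieties at 0 DAS and 0.0401 for BTSO from 0 to 90 DAS) did not outlast leaving out either positive BTSO library of 0 DAS. Without this gene, 3 members were called at 0 DAS, 2 of them higher in TBO.

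Citrate synthase makes citrate from acetyl-CoA and oxaloacetate. Cs7g01170, annotated from a pummelo protein, stood at 15.2, 16.2 and 15.1 FPKM in TBO at 0 DAS, and 15.3, 16.4 and 14.8 in BTSO. At 90 DAS the values were 10.2, 8.02 and 9.12 in TBO and 6.34, 8.34 and 8.47 in BTSO. The varieties overlapped on both days. It was called between the varieties on no day, and the 95% interval of the log2 difference ran from -0.27 to 0.27 at 0 DAS and from -0.05 to 0.48 at 90 DAS. Its mean fell at each of the 4 steps in both varieties.

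Aconitate hydratase turns citrate into isocitrate. Cs1g26040, aconitate hydratase 1, measured 82.0, 84.9 and 82.5 FPKM in TBO at 0 DAS and 73.3, 67.6 and 64.5 in BTSO. No BTSO library reached the lowest TBO library, and the log2 difference was 0.28 (SE 0.09, adjusted p = 0.0177). At 30 DAS the levels were 68.6, 61.4 and 63.5 FPKM in TBO and 45.1, 50.7 and 62.5 in BTSO, which overlapped (log2 difference 0.30, SE 0.09, adjusted p = 0.0109). At 60 DAS the BTSO mean was the higher one, 67.6 ± 3.54 against 64.7 ± 1.65 FPKM (SD, n = 3), and the difference missed the threshold. Both calls were lost when single libraries were left out: the one at 0 DAS without BTSO replicate 3 (log2 difference 0.24), and the one at 30 DAS without TBO replicate 1 (0.25) or BTSO replicate 1 (0.19). The call at 0 DAS was also lost under upper-quartile scaling (0.15), edgeR (0.20) and DESeq2 (0.20). That at 30 DAS was lost under upper-quartile scaling (0.17) and in the fit on the compared groups alone (adjusted p = 0.11).

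Isocitrate dehydrogenase forms 2-oxoglutarate. The NAD-dependent form is the enzyme of the cycle, and both members are NADP-dependent forms. The orange1.1t04187 gene, whose name gives no compartment, stood at 254.6, 228.9 and 252.5 FPKM in TBO at 0 DAS beside 214.3, 220.4 and 186.1 in BTSO, and at 330.1, 301.2 and 343.3 against 239.0, 230.6 and 268.4 at 90 DAS. TBO lay above BTSO in every library at 0, 30, 60 and 90 DAS, while the groups overlapped at 15 DAS. The log2 difference was 0.25, 0.10, 0.33, 0.24 and 0.40 from 0 to 90 DAS (SE 0.09), with adjusted p of 0.0219, 0.336, 0.00243, 0.0249 and 0.000457. At 30 DAS the levels were 244.4, 256.1 and 231.8 FPKM in TBO and 195.4, 189.1 and 195.7 in BTSO, the day on which the BTSO replicates were closest to each other.

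The call of orange1.1t04187 at 90 DAS outlasted every alternative. The one at 30 DAS was lost under upper-quartile scaling alone (log2 difference 0.21, adjusted p = 0.0586). Those at 0 and 60 DAS were lost under upper-quartile scaling, edgeR and DESeq2, and without single libraries: at 0 DAS without TBO replicate 1 (0.22) or 3 (0.23) or BTSO replicate 3 (0.17), and at 60 DAS without TBO replicate 3 (0.21) or BTSO replicate 1 (0.22) or 2 (0.23). The fit on the compared groups alone lost them too (adjusted p = 0.0847 and 0.0838). The plastid or mitochondrial form Cs2g27720 was called only at 15 DAS, at 33.5, 31.7 and 41.1 FPKM in TBO and 29.3, 26.5 and 26.8 in BTSO. The groups did not overlap (log2 difference 0.34, SE 0.12, adjusted p = 0.0207), the median of all genes was 0.13 on that day, and relative to it the difference was 0.22. It was lost without TBO replicate 3 (0.23) or BTSO replicate 2 (0.32) or 3 (0.33), under quantile normalization (0.20) and upper-quartile scaling (0.16), and with edgeR (0.19) and DESeq2 (0.19).

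The 2-oxoglutarate dehydrogenase complex forms succinyl-CoA, and both its E1 and its E2 subunit were members. The succinyltransferase E2 subunit Cs4g10100 was lower in TBO from 0 to 60 DAS. At 15 DAS it stood at 34.3, 35.6 and 30.5 FPKM in TBO and 45.5, 48.6 and 43.3 in BTSO, and at 60 DAS at 35.1, 34.3 and 27.8 against 42.4, 48.2 and 43.3. The groups did not overlap on these days or at 30 DAS, and the log2 difference was -0.35, -0.44, -0.42 and -0.46 from 0 to 60 DAS (SE 0.14, adjusted p = 0.0362, 0.00918, 0.0128 and 0.00765). At 90 DAS the values met, at 33.0, 30.9 and 31.2 FPKM in TBO and 35.2, 33.0 and 38.2 in BTSO (-0.15, adjusted p = 0.353). The call at 15 DAS outlasted every alternative. The call at 0 DAS was lost without TBO replicate 1 or 3 (-0.28 each) or BTSO replicate 1 (-0.28) or 2 (-0.31), the one at 30 DAS without TBO replicate 3 (-0.37) or BTSO replicate 2 (-0.23), and the one at 60 DAS without TBO replicate 3 (-0.35). Those at 0 and 30 DAS were also lost in the fit on the compared groups alone (adjusted p = 0.108 and 0.0759).

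The E1 subunit Cs5g19810 was called between the varieties at 90 DAS. It then stood at 33.6, 33.5 and 37.7 FPKM in TBO and 34.7, 54.7 and 57.2 in BTSO, where the first BTSO replicate lay within the TBO values. The log2 difference was -0.44 (SE 0.15, adjusted p = 0.0152), and the call was lost without BTSO replicate 2 (-0.35) or 3 (-0.31) and in the fit on the compared groups alone (adjusted p = 0.0891). At 0 DAS every TBO library (43.9, 53.9 and 47.8 FPKM) lay below every BTSO library (61.9, 68.2 and 55.2), with a log2 difference of -0.34 and an adjusted p of 0.0612. This difference was called under quantile normalization (-0.35), upper-quartile scaling (-0.47), edgeR (-0.43) and DESeq2 (-0.43) and in the fit on the compared groups alone (adjusted p = 0.0451). At 15 DAS the order was reversed, with TBO (44.9, 43.95 and 46.8 FPKM) wholly above BTSO (40.9, 43.1 and 39.2). The log2 difference there was 0.14 and was not called (limma adjusted p = 0.464).

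Succinyl-CoA ligase yields succinate and ATP. Its mitochondrial alpha-2 subunit Cs7g13790 differed between the varieties at 90 DAS. At 0 DAS it measured 33.8, 26.6 and 30.9 FPKM in TBO and 31.7, 31.6 and 33.9 in BTSO, and the groups overlapped. At 90 DAS it measured 28.8, 25.5 and 30.0 in TBO and 18.5, 16.1 and 17.2 in BTSO, and every TBO library was then above the BTSO libraries. The log2 difference passed from -0.09 (adjusted p = 0.41) at 0 DAS through -0.16, -0.12 and 0.17 to 0.67 (SE 0.09, 95% interval 0.49 to 0.86, adjusted p = 1.29e-06) at 90 DAS, where the ratio of the means was 1.63. At 15 DAS it was called lower in TBO under quantile normalization (-0.30), upper-quartile scaling (-0.34), edgeR (-0.33) and DESeq2 (-0.33), and upper-quartile scaling called it lower at 0 DAS (-0.22) and 30 DAS (-0.24) as well. At 60 DAS the groups were already separate, at 29.0, 27.7 and 32.3 FPKM in TBO and 26.3, 27.5 and 25.03 in BTSO, with an adjusted p of 0.119. The joined locus orange1.1t02826/orange1.1t02827 was called between the varieties on no day, with group means of 8.85 to 12.9 FPKM in TBO and 10.3 to 14.7 in BTSO. Quantile normalization, upper-quartile scaling, edgeR and DESeq2 each called orange1.1t02826;orange1.1t02827 lower in TBO at 0 DAS (-0.28 to -0.30), 30 DAS (-0.33 to -0.36) and 90 DAS (-0.28 to -0.34).

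Succinate dehydrogenase links the cycle to the respiratory chain. Subunit 5, Cs3g23750, a small subunit found in plants, was called on no day, with log2 differences from -0.09 to 0.04 (SE 0.12). At 0 DAS it stood at 131.7, 158.6 and 149.4 FPKM in TBO and 137.6, 145.0 and 142.8 in BTSO, and at 90 DAS at 157.4, 147.0 and 146.5 against 191.1, 153.3 and 140.5. At 90 DAS the 95% interval ran from -0.34 to 0.16. Assembly factor 1, Cs5g19705, which helps insert the iron-sulfur clusters, was lower in TBO at 30 DAS (3.24, 3.45 and 3.98 FPKM against 5.75, 7.71 and 5.20) and at 60 DAS (3.38, 2.77 and 2.62 against 4.50, 4.66 and 3.71). The groups did not overlap on either day, and the log2 differences were -0.65 (SE 0.16, adjusted p = 0.00144) and -0.43 (adjusted p = 0.0266). The call at 60 DAS was lost without TBO replicate 2 (-0.41) or 3 (-0.38) or BTSO replicate 1 (-0.40) or 2 (-0.38). The summed lignified tissue genes were higher in BTSO on the same days and at 15 DAS, mostly through the laccase Cs6g07400. Of the other tested laccases, Cs3g22170 was called higher in BTSO among these days only at 30 DAS, and Cs1g24250 only at 60 DAS. Group means of both exceeded 1 FPKM, the level of the filter, only in BTSO. Their TBO means were 0.10 to 0.51 and 0.03 to 0.31 FPKM, so a higher level in BTSO was largely given in advance. The part of the lignified tissue genes and seed genes in these and the other variety differences was not tested.

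Malate dehydrogenase regenerates oxaloacetate, and chloroplast forms take part in the exchange of malate with the cytosol. The mean of the chloroplastic form Cs5g10730 was lower in TBO than in BTSO on each day. At 30 DAS it measured 53.9, 52.2 and 48.3 FPKM in TBO and 57.4, 65.8 and 60.1 in BTSO, and at 90 DAS 37.2, 35.8 and 37.4 against 45.1, 53.8 and 52.6. The groups did not overlap on these days, but did at 60 DAS, where TBO had 46.4, 49.6 and 44.4 FPKM and BTSO 54.2, 67.1 and 49.4. The log2 difference was -0.24 (adjusted p = 0.0284), -0.27 (adjusted p = 0.0177) and -0.44 (adjusted p = 0.000288) at 30, 60 and 90 DAS, and -0.21 at 0 and 15 DAS (SE 0.09, adjusted p = 0.0581 and 0.054). Quantile normalization, upper-quartile scaling, edgeR and DESeq2 each called it at 0 DAS (-0.21 to -0.34) and at 15 DAS (-0.27 to -0.40) too. The call at 90 DAS outlasted every alternative, whereas those at 30 and 60 DAS were lost in the fit on the compared groups alone (adjusted p = 0.0857 and 0.127). The call at 30 DAS was also lost without TBO replicate 3 (-0.20) or BTSO replicate 2 (-0.19), and that at 60 DAS without the same 2 libraries of its own day (-0.23 and -0.14).

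The leucine synthesis enzyme Cs1g11670 was lower in TBO at 30 DAS (log2 difference -0.30, SE 0.10, adjusted p = 0.0151) and at 60 DAS (-0.39, adjusted p = 0.00271), the first of which was lost in the fit on the compared groups alone (adjusted p = 0.126) and without TBO replicate 3 (-0.21) or BTSO replicate 2 (-0.18). At 60 DAS it stood at 9.95, 10.1 and 9.79 FPKM in TBO and 13.2, 15.9 and 11.3 in BTSO. Quantile normalization, upper-quartile scaling, edgeR and DESeq2 each called it lower at 0, 15 and 90 DAS too (-0.29 to -0.40). Without this gene and Cs5g19705, neither of them an enzyme of the cycle, the members called were 4, 2, 4, 3 and 4 of 11 from 0 to 90 DAS. BTSO replicate 2 held the highest value of its group for 9 of the 13 members at 30 DAS and again at 60 DAS, as did TBO replicate 2 at 0 DAS, and BTSO replicate 2 for 8 at 0 DAS. The calls of the members at 30 and 60 DAS without BTSO replicate 2 numbered 3 and 2.

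Each variety was then compared between 90 and 0 DAS, to follow the same genes over storage. In BTSO 10 of the 13 members changed, 8 of them downward, and in TBO 6 changed, 5 of them downward. Among all genes tested, 16.7% fell and 32.2% rose in BTSO (48.9% called), and 18.1% fell and 37.0% rose in TBO (55.0% called). The median change of the members was -0.36 in BTSO and -0.11 in TBO on the log2 scale, beside 0.13 and 0.16 over all genes tested. The same 5 members fell in both varieties (38.5%), as 11.2% of all genes tested did. In all, 6 members changed in the same direction in both varieties, beside 34.6% of all genes. With a log2 change over 1 required as well, 0 members passed in TBO and 1 in BTSO (Cs8g06950), beside 11% and 7.29% of all genes. Since the members were chosen with earlier results of these data known, these shares are given as a description without a test. Members that rose and fell numbered 1 and 5 in TBO and 1 and 6 in BTSO under quantile normalization. There 25.9% and 23.3% of all genes rose and 26.3% and 22.4% fell. Under upper-quartile scaling they numbered 1 and 5 in TBO and 1 and 8 in BTSO (35.7% and 28.2% of all genes rose, 19.8% and 20.7% fell). With edgeR and with DESeq2 they numbered 1 and 7 in TBO and 0 and 7 in BTSO (24.7% to 28.0% of all genes rose, 23.0% to 26.3% fell). The TBO count was 5 to 6 and the BTSO count 6 to 8 with each library of these groups left out. The fit on the libraries of BTSO at 0 and 90 DAS alone called 5 members. The share of all genes called in these refits is not given here. Green tissue genes were lower at 90 DAS in both varieties (3 of 7 called in each). The summed lignified tissue genes were higher, at 4.48 to 5.26 FPKM at 0 DAS and 10.4 to 22.0 at 90 DAS in TBO. In BTSO the sums were 5.24 to 7.80 and 16.4 to 18.6 (1 of 3 tested genes rose in TBO, 2 rose and 1 fell in BTSO). In BTSO the mean of Cs1g24250 rose from 0.02 to 5.6 FPKM, and that of Cs3g22170 fell from 1.16 to 0.242. Both had means over 1 FPKM only in BTSO, so these directions were largely given in advance by the filter. The part of the green or lignified tissue genes in the falls was not tested.

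**Figure D3:**
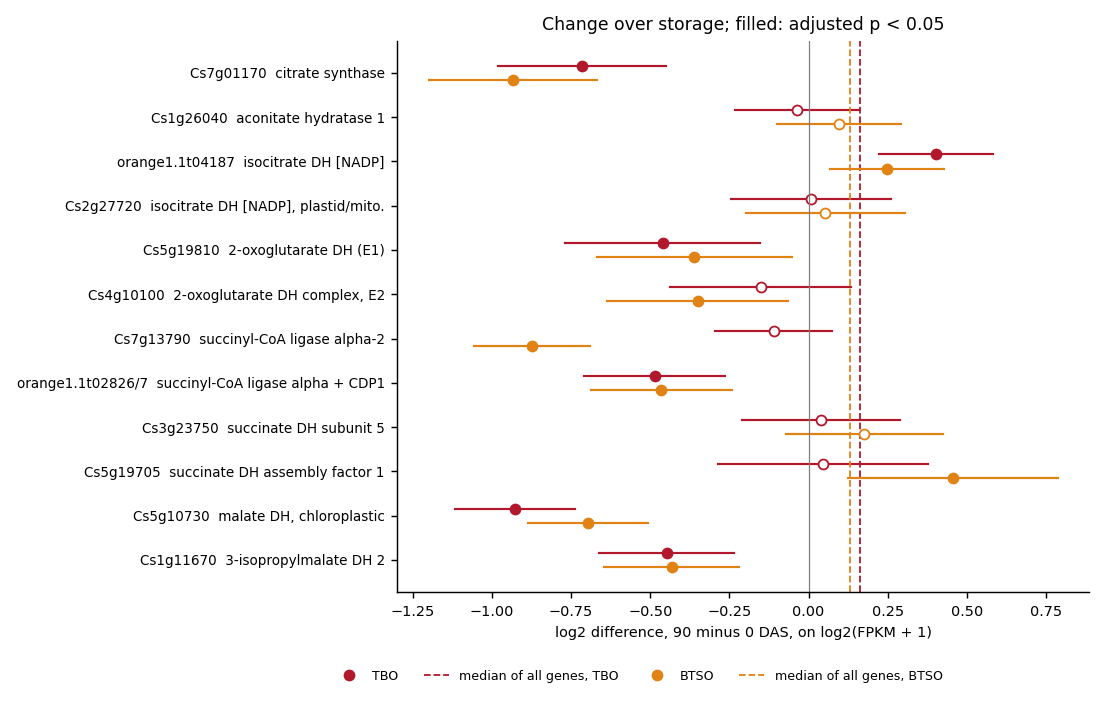
Change from 0 to 90 DAS on the log2(FPKM + 1) scale (x axis) for 12 citrate cycle genes (y axis) in TBO and BTSO, with the 95% interval of the limma fit. Filled points were called (adjusted p under 0.05), dashed lines are the medians of all genes tested (0.16 in TBO and 0.13 in BTSO), and Cs8g06950 is left out because its interval runs off the scale. Most points lie to the left of 0, Cs7g13790 sits apart between the varieties, and orange1.1t04187 is to the right in both.

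Of the 5 that fell in both varieties, Cs7g01170 and Cs5g19810 are named as enzymes of the cycle, Cs5g10730 as a chloroplastic form, Cs1g11670 as a leucine synthesis enzyme, and the last is the joined locus. Cs5g10730, chloroplastic malate dehydrogenase, fell from 66.0, 77.2 and 69.7 FPKM to 37.2, 35.8 and 37.4 in TBO and from 78.2, 86.8 and 81.9 to 45.1, 53.8 and 52.6 in BTSO. No library of 90 DAS reached the level of any library of 0 DAS. The mean fell at every step, and the log2 change was -0.93 (SE 0.09, adjusted p = 1.78e-08) in TBO and -0.70 (adjusted p = 1.84e-06) in BTSO, or -1.09 and -0.83 relative to the median of all genes. Whether the fall differed between the varieties was tested directly, with a difference of -0.23 (adjusted p = 0.269), which under quantile normalization was -0.36 and called (adjusted p = 0.0291).

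Citrate synthase Cs7g01170 fell by 0.72 on the log2 scale in TBO (SE 0.13, adjusted p = 5.29e-05) and by 0.93 in BTSO (adjusted p = 3.25e-06), without overlap between the days. The mean went from 15.5 ± 0.620 to 9.10 ± 1.08 FPKM in TBO (SD, n = 3) and, in BTSO, from 15.5 ± 0.808 to 7.71 ± 1.19, and 41.4% and 50.4% of the level was thereby lost. A second locus of the table carries the same reference gene name without a protein name, so that it was no member. It ranged from 0.00446 to 21.4 FPKM and was close to 0 in BTSO replicate 3 at 0 DAS, TBO replicate 3 at 60 DAS and TBO replicate 3 at 90 DAS, where Cs7g01170 stood at 14.8, 12.5 and 9.12 FPKM. That locus was called in no comparison. Its BTSO libraries lay wholly above those of TBO at 15 DAS (15.37 to 21.36 against 6.73 to 11.16 FPKM). They did so at 30 DAS too (13.5 to 20.45 against 9.52 to 11.53), but on no other day. The sum of both loci separated the varieties only at 15 DAS, with at most 24.86 FPKM in TBO and at least 28.83 in BTSO. Over storage this sum was 24.9 ± 3.65 FPKM at 0 DAS and 22.5 ± 11.5 at 90 DAS in TBO. In BTSO it was 25.3 ± 10.9 and 21.5 ± 2.50, and the days overlapped in each variety. The fall of Cs7g01170 was thus measured for its own locus only.

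The E1 subunit of 2-oxoglutarate dehydrogenase, Cs5g19810, fell from 48.5 ± 5.06 to 34.9 ± 2.39 FPKM in TBO (log2 change -0.46, SE 0.15, adjusted p = 0.0111) and from 61.8 ± 6.50 to 48.9 ± 12.3 in BTSO (-0.36, adjusted p = 0.0472). The days did not overlap in TBO. In BTSO they met, since the replicates of 90 DAS were far apart. That call was lost without BTSO replicate 1 (-0.36) or 2 (-0.29) of 0 DAS or replicate 1 of 90 DAS (-0.14). It was also lost under quantile normalization (-0.29, adjusted p = 0.0794), without the filter (adjusted p = 0.0643) and in the fit on the compared groups alone (adjusted p = 0.183). The TBO call was lost without TBO replicate 2 of 0 DAS (-0.38, adjusted p = 0.0567).

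The remaining pair were the gene of leucine synthesis and the joined locus. Cs1g11670 fell from 14.1 ± 0.819 to 10.1 ± 0.138 FPKM in TBO (log2 change -0.45, adjusted p = 0.000705) and from 16.2 ± 0.720 to 11.8 ± 0.583 in BTSO (-0.43, adjusted p = 0.00123). The locus orange1.1t02826/orange1.1t02827 fell from 11.4, 14.9 and 12.3 FPKM to 8.76, 8.38 and 9.42 in TBO and from 13.8, 13.9 and 16.2 to 9.30, 11.3 and 10.4 in BTSO. Its days did not overlap in either variety, and the log2 changes were -0.49 (adjusted p = 0.000506) and -0.47 (adjusted p = 0.000969).

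The single member that rose in both varieties was the NADP-dependent isocitrate dehydrogenase orange1.1t04187. Its means rose from 245.4 ± 14.2 to 324.9 ± 21.5 FPKM in TBO and from 207.0 ± 18.3 to 246.0 ± 19.9 in BTSO, without overlap between the days in either. The log2 change was 0.40 (SE 0.09, adjusted p = 0.00039) in TBO and 0.25 (adjusted p = 0.0202) in BTSO, or 0.24 and 0.12 relative to the median of all genes, and the difference between these changes was not called (0.15, adjusted p = 0.464). The BTSO rise was lost without BTSO replicate 3 of 0 DAS (0.17) or of 90 DAS (0.18), under upper-quartile scaling (0.17), and with edgeR (0.11) and DESeq2 (0.09). The fit on the compared groups alone lost it as well (adjusted p = 0.105). The path was not even, since BTSO stood at 246.7 ± 29.1 FPKM at 15 DAS and at 193.4 ± 3.74 at 30 DAS.

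Other changes were called in BTSO alone by limma. Cs7g13790, succinyl-CoA ligase alpha-2, fell by 0.87 on the log2 scale in BTSO (SE 0.09, adjusted p = 5.78e-08), from 32.4 ± 1.32 to 17.2 ± 1.21 FPKM, or by 46.8% of its mean. In TBO it went from 30.4 ± 3.65 to 28.1 ± 2.32 FPKM (log2 change -0.11, adjusted p = 0.305), though edgeR and DESeq2 called that fall as well (-0.29 each). Its change differed between the varieties by 0.76 (SE 0.13, 95% interval 0.50 to 1.02, adjusted p = 0.000233), where 12.4% of all genes differed. No other member was called in this comparison by the main fit. Cs5g10730 was called under quantile normalization, and the on or off gene Cs8g06950 without BTSO replicate 3 of 0 DAS (limma adjusted p = 0.0178). The value of Cs7g13790 stayed between 0.67 and 0.84 with each library of the 4 groups left out. The BTSO level stood at 33.2 FPKM at 15 DAS, 27.4 at 30 DAS and 26.3 at 60 DAS, so that most of the fall lay after 60 DAS.

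The E2 subunit Cs4g10100 fell from 45.7 ± 6.40 to 35.5 ± 2.63 FPKM in BTSO (log2 change -0.35, adjusted p = 0.0373), and went from 35.7 ± 6.59 to 31.7 ± 1.15 in TBO (-0.15, adjusted p = 0.363), a fall that edgeR and DESeq2 called as well (-0.33 each, adjusted p = 0.0287 and 0.0228). The BTSO call was lost without any 1 of replicates 1 and 2 of either day, under quantile normalization (-0.30) and in the fit on the compared groups alone (adjusted p = 0.0559). Cs5g19705, the assembly factor, rose in BTSO from 2.27, 3.45 and 1.95 to 3.71, 3.58 and 4.14 FPKM (log2 change 0.46, SE 0.16, adjusted p = 0.0204), and its group mean was highest at 30 DAS, at 6.22 ± 1.32 FPKM. This call was lost without BTSO replicate 1 (0.41) or 3 (0.33) of 0 DAS or replicate 3 of 90 DAS (0.41), and with edgeR and DESeq2. It was also lost under quantile normalization (0.26, adjusted p = 0.145) and in the fit on the compared groups alone (adjusted p = 0.0661). For neither gene was the change shown to differ between the varieties.

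The 3 members called in neither variety were aconitase Cs1g26040 (83.2 ± 1.52 to 81.2 ± 5.15 FPKM in TBO, 68.4 ± 4.46 to 73.2 ± 5.98 in BTSO), isocitrate dehydrogenase Cs2g27720 and succinate dehydrogenase subunit 5 (Cs3g23750). The aconitase level was lower in between, at 64.5 ± 3.70 FPKM in TBO at 30 DAS and 52.8 ± 8.89 in BTSO, and the end points alone do not show this course. For Cs3g23750 the 95% interval of the log2 change was -0.21 to 0.29 in TBO and -0.07 to 0.42 in BTSO.

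**Figure D4:**
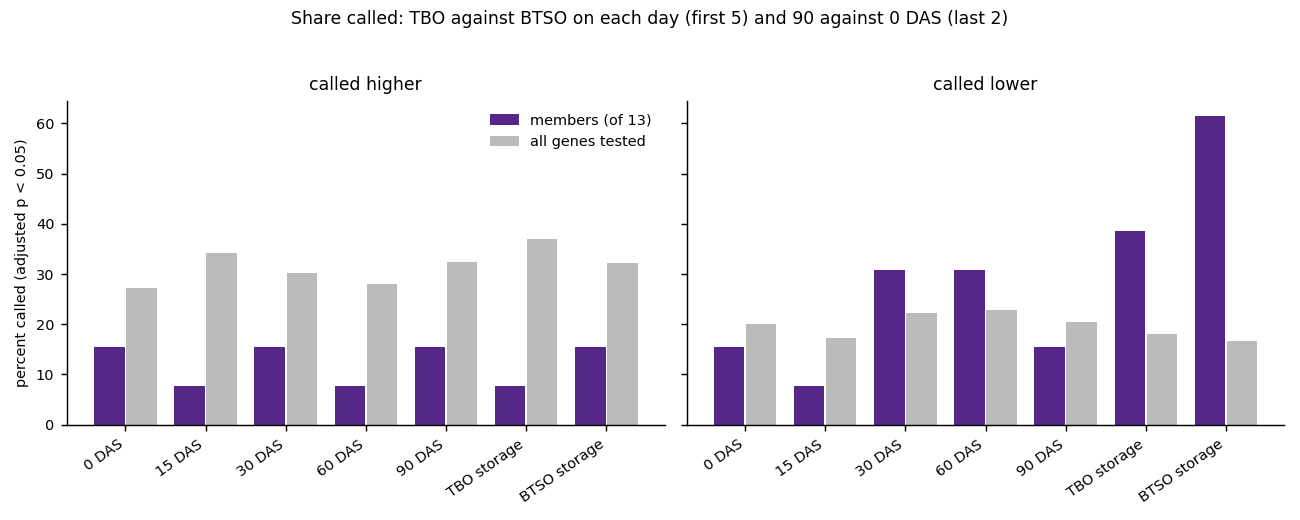
Percent of genes called higher and lower (y axis, from 0; adjusted p under 0.05) among the 13 citrate cycle genes and among all 16578 genes tested, for TBO against BTSO on each day (first 5) and for 90 against 0 DAS in each variety (last 2). The members' share called higher is below the background in every comparison, and their share called lower is above it at 30 and 60 DAS (4 of 13 each, beside 22.3% and 22.8%) and over storage (5 of 13 in TBO and 8 of 13 in BTSO, beside 18.1% and 16.7%).

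Genes that feed the cycle or share its complexes were taken from 9 further genes by name, of which 7 could be tested. Over storage 4 fell and 0 rose in TBO, where 18.1% of all genes fell and 37.0% rose, and 3 fell and 0 rose in BTSO, where 16.7% fell and 32.2% rose. Phosphoenolpyruvate carboxylase 2 (Cs2g15520), which supplies oxaloacetate from glycolysis, was higher in TBO from 15 DAS on: 74.1, 74.1 and 144.3 FPKM against 60.7, 40.2 and 40.3 at 15 DAS, and 75.2, 78.9 and 81.0 against 21.5, 28.1 and 22.1 at 60 DAS. The varieties did not overlap, with log2 differences of 0.99, 1.64, 1.68 and 0.55 from 15 to 90 DAS (SE 0.20, adjusted p = 0.000286, 5.52e-07, 3.76e-07 and 0.027). It fell over storage by 0.91 in TBO and by 1.26 in BTSO (log2, adjusted p = 0.000541 and 2.33e-05). The other two genes of this enzyme did not share this: the housekeeping isozyme Cs8g09580 was lower in TBO at 0 DAS (-0.31, adjusted p = 0.0169) and at 90 DAS (-0.29, adjusted p = 0.0208), and Cs7g12630 was called on no day.

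The pyruvate dehydrogenase E2 component Cs3g22480, a dihydrolipoyl acetyltransferase with a chloroplastic name, was lower in TBO on all 5 days. Its mean went from 21.5 ± 2.55 to 11.01 ± 0.798 FPKM in TBO (SD, n = 3), and in BTSO from 33.6 ± 1.18 to 19.8 ± 1.60. The log2 difference between the varieties was -0.63, -0.51, -0.64, -0.72 and -0.79 (SE 0.11), and no library of the varieties overlapped on any day. The mitochondrial E2 component Cs1g17930 was called in no comparison, with log2 differences between the varieties from -0.27 to 0.03 (SE 0.14). A malate synthase and a mitochondrial pyruvate carrier were too low to test, and by these names 0 genes were found for malic enzyme, isocitrate lyase and pyruvate dehydrogenase kinase.

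The protein names cover only a part of each enzyme. By the KEGG orthology entries of the same table, a list that was added after the table had been seen, 37 further genes belong to these enzymes. Of these, 6 carry the name of another protein, such as cyclin-U4-1 or peroxiredoxin Q, and were left out of the sums and counts here. Of the 6, 4 stand under the citrate synthase entry. The unnamed genes may be misassigned by their entries too, which was not tested, so the sums and shares below depend on these entries. Over storage 3 of the 6 rose and 0 fell in each variety. Among all genes 37.0% rose and 18.1% fell in TBO, and 32.2% rose and 16.7% fell in BTSO. Of the FPKM summed over each enzyme with the other 31, the members held 100% for succinyl-CoA ligase alpha, 71.3% for NADP-dependent isocitrate dehydrogenase, 71.2% for 2-oxoglutarate dehydrogenase E1 and 47.2% for aconitase, but 9.97% for citrate synthase, 3.36% for pyruvate dehydrogenase E1 beta and 0% for NAD-dependent isocitrate dehydrogenase, fumarate hydratase and the catalytic subunits of succinate dehydrogenase.

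**Figure D5:**
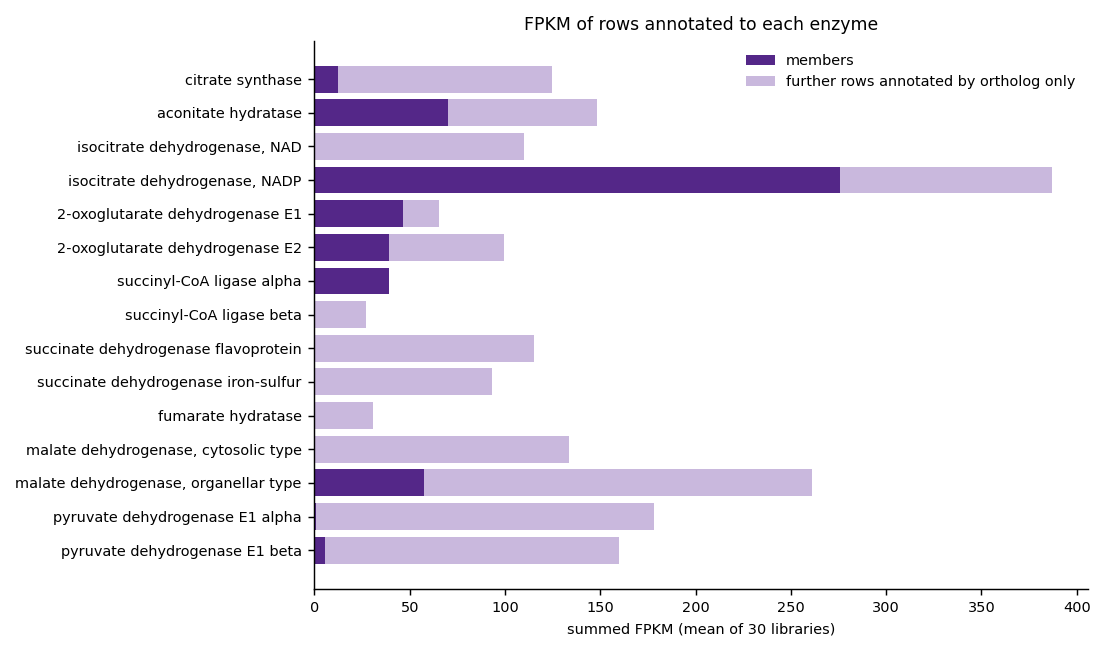
Summed FPKM (mean of 30 libraries) of the genes annotated to each enzyme, split into members by protein name and further genes found only by their KEGG orthology entry. The members carry most of the level for succinyl-CoA ligase alpha and NADP-dependent isocitrate dehydrogenase, and little of it for citrate synthase (9.97%) and pyruvate dehydrogenase E1.

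Of these 31 genes 28 could be tested. Over storage 12 fell and 3 rose in TBO, where 18.1% of all genes fell and 37.0% rose, and 15 fell and 1 rose in BTSO, where 16.7% fell and 32.2% rose. In both varieties 10 of the 28 fell (35.7%), beside 11.2% of all genes tested. Between the varieties 2, 4, 2, 2 and 6 were higher in TBO and 9, 7, 7, 9 and 6 lower from 0 to 90 DAS. Among all genes 27.2% to 34.2% were higher and 17.3% to 22.8% lower. The tested genes include Cs5g18720, at 0 in all 15 TBO libraries, and Cs1g03070, with TBO means of 0.04 to 0.21 FPKM. Both passed the filter through BTSO alone, so a lower level in TBO was given for them in advance. The aconitase Cs4g10280 fell from 35.15 ± 1.295 to 15.8 ± 0.839 FPKM in TBO and from 30.5 ± 3.02 to 17.2 ± 3.22 in BTSO (log2 changes -1.10 and -0.81, SE 0.11), where the member Cs1g26040 was not called. Under the citrate synthase entry, the unnamed genes orange1.1t00493 and orange1.1t01588 were called in no comparison. Under the same entry Cs2g21900 was higher in TBO at 60 DAS (log2 difference 0.61) and 90 DAS (0.90), and Cs1g03070 was lower at 0, 15 and 60 DAS.

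Cs6g11970, placed under NAD-dependent isocitrate dehydrogenase by its entry alone, was lower in TBO on all 5 days. Its log2 differences were -0.42, -0.58, -0.51, -0.64 and -0.42 (SE 0.13). Of the 28 further genes tested, 2 (7.14%) were called on all 5 days, beside 21.8% of all genes. Of the 3 genes under this entry, 2, 2, 2, 2 and 1 were called lower in TBO from 0 to 90 DAS and 0 higher. The measurements that follow are those of Cs6g11970. At 15 DAS it measured 54.0, 53.5 and 49.9 FPKM in TBO and 76.2, 82.6 and 77.5 in BTSO, and at 0 DAS the groups overlapped. It fell over storage by 0.57 in TBO and by 0.58 in BTSO (log2). The NADP-dependent gene Cs6g08695 went from 87.6 ± 5.72 to 76.1 ± 5.44 FPKM in TBO and from 86.8 ± 6.54 to 109.3 ± 7.61 in BTSO, and the change of the variety difference was -0.53 (SE 0.15, adjusted p = 0.0225).

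For pyruvate dehydrogenase E1 beta, Cs2g03260 was higher in TBO from 15 to 90 DAS. At 90 DAS it stood at 37.1, 47.5 and 44.5 FPKM in TBO and 28.7, 33.0 and 33.1 in BTSO, without overlap, and its fall over storage was smaller in TBO (-0.64) than in BTSO (-1.12), with a difference of 0.49 (SE 0.13, adjusted p = 0.0131). Another gene of this enzyme, Cs5g18720, was listed at 0 in all 15 TBO libraries and at 5.02 to 10.98 FPKM (median 7.19) in the 15 of BTSO, and no fold is given. For malate dehydrogenase, the cytosolic-type gene Cs9g10470 fell from 137.7 ± 26.3 to 93.7 ± 10.4 FPKM in TBO and from 185.9 ± 16.4 to 103.0 ± 7.70 in BTSO, with log2 changes of -0.54 and -0.84 (SE 0.13, adjusted p = 0.00152 and 1.92e-05).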

How the data were processed

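RNA-seq of juice sacs gave 30 libraries, 3 for each variety and storage day, grouped by the sample titles. Reads were cleaned of rRNA and poor quality by the authors, mapped to a sweet orange genome and assembled into transcripts, whose FPKM they then computed. The submitters' processing notes name HISAT2 2.0, StringTie 1.3.0 and Bowtie 0.12.2, and a genome build of another species; the citrus build and the strand setting are not given in the sources used here, and sequences of the members are not shown. The deposited table holds, per gene and library, FPKM and estimated counts. The estimated counts that the authors deposited are larger than read numbers, so depth is not known from them, and they served for edgeR and DESeq2 only. Assembled loci may share reads with near-identical copies, which makes single members of these families uncertain, and without a known strand setting reads from overlapping genes cannot be told apart.

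Testing was done in R 4.3.3 by limma 3.58.1, for genes that reached 1 FPKM in 3 or more libraries. Values were taken as log2(FPKM + 1), a pseudocount of 1, with 1 mean per group, a variance trend and no covariate, over all 30 libraries. The 8 contrasts were TBO minus BTSO on each day, 90 minus 0 DAS in each variety, and how far the variety difference itself changed from 0 to 90 DAS. The Benjamini-Hochberg adjustment ran over all 16578 genes, and 95% intervals used 20 residual degrees of freedom. Replicates are separate biological samples by the labels. The steps were tested on simulated data.

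Alternatives were a pseudocount of 0.1, a maximum of at least 2 FPKM or no filter, quantile and upper-quartile scaling, fits on the compared groups only, a replicate block, each library left out in turn, edgeR 4.0.16 and DESeq2 1.42.0. Python 3.11.15 with pandas 2.3.3, numpy 2.4.6 and matplotlib 3.10.9 were used. Members and lists were chosen with earlier results of these data known. Members described in full were the most expressed of each enzyme, those past the combined limit on any day, those whose variety difference changed, and the 3 largest rises and falls in each variety; Cs4g10100, Cs2g27720 and Cs1g11670, and the further genes singled out by name, were described after their values were seen.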

Additional observations from a re-analysis of the deposited data

Results flagged for a closer look

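The variety difference of the mitochondrial succinyl-CoA ligase subunit Cs7g13790 changed from 0 to 90 DAS by 0.764 on the log2 scale (SE 0.125, limma adjusted p = 0.000233). All 3 TBO libraries exceeded all 3 BTSO libraries at 90 DAS, and at 0 DAS they overlapped. It was picked out because the storage change differed between the varieties by a test of that difference.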

How the results depend on the processing

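Of the 38 calls over 13 members and 8 comparisons, 18 were kept with every library left out, 20 under every other alternative and 17 under all, and 19 further member comparisons gained a call under at least 1 alternative. No value reversed its direction while called. The members called at 0 DAS (4) became 8 under quantile normalization, 7 under upper-quartile scaling and 1 under the combined limit of p and log2 difference. Of all genes, 47.6%, 48.8% and 7.93% were called in these. At 15 DAS (2) they became 4 under quantile, upper-quartile, edgeR and DESeq2, where 50.8% to 52.8% of all genes were called. At 30 DAS (6) and 60 DAS (5) they became 2 and 3 in fits on the compared groups only. The combined limit gave 0 at 15, 30, 60 and 90 DAS. Over storage, a log2 change over 1 was found for 0 members in TBO (6) and 1 in BTSO (10), and the fit on the compared groups only gave 5 in BTSO. The change of the variety difference (1) became 2 under quantile normalization, where 14.4% of all genes were called. Calls on all 5 days (0, beside 21.8% of all genes) became 2 under quantile, upper-quartile, edgeR and DESeq2. The share of all genes is not given here for all 5 days under these alternatives. It is also not given for fits on the compared groups or with libraries left out, so those counts have no background beside them. By alternatives added after seeing the data, 3 were called at 60 DAS without Cs5g19705 and Cs1g11670, 3 at 60 DAS and 6 in BTSO over storage without these, Cs8g06950 and the joined locus.

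With each library left out, the counts ran from 1 to 6 at 0 DAS, 1 to 3 at 15 DAS, 3 to 6 at 30 DAS, 1 to 5 at 60 DAS, 3 to 5 at 90 DAS, 5 to 6 in TBO and 6 to 8 in BTSO over storage, 1 to 2 for the change of the difference and 0 to 1 on all 5 days. Counts moved by over 1.5 times at 0 DAS without TBO replicate 1 (1) or 3 (1) or BTSO replicate 1 (2) or 2 (2), at 15 DAS without TBO replicate 3 or BTSO replicate 2 or 3 (1 each), at 30 DAS without TBO replicate 3 or BTSO replicate 2 (3 each), at 60 DAS without TBO replicate 3 (1) or BTSO replicate 1 (3) or 2 (2), in BTSO over storage without BTSO replicate 1 of 0 DAS (6), for the change of the difference without BTSO replicate 3 of 0 DAS (2), and on all 5 days without TBO replicate 2 of 0 DAS, BTSO replicate 3 of 60 DAS or replicate 1 of 90 DAS (1 each).

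The causes of these changes were not tested. Scaling moved the median of all genes: over storage it was 0.16 in TBO and 0.13 in BTSO, and at 15 DAS 0.13, against -0.0035, 0.010 and 0.015 under quantile normalization, and the share of all calls that were higher went from 67.2% to 49.6%, 65.9% to 51.0% and 66.3% to 52.4%. At 0 DAS upper-quartile scaling took it from 57.7% to 42.8%.

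Same-numbered replicates shared little deviation: 4 of 21 pairs had r over 0.1, in a range of -0.11 to 0.18. Between the varieties at 0 DAS all same-numbered pairs were above 0 (r from 0.01 to 0.18), where differently numbered pairs ran from -0.16 to 0.10. With the replicate block 6, 3, 6, 5 and 4 members were called from 0 to 90 DAS, 6 and 10 over storage, 1 for the change of the difference and 1 on all 5 days, and the share of all genes called with it is not given here. It gained 3 calls (Cs5g10730 at 0 and 15 DAS and Cs5g19810 at 0 DAS) and lost 0 of the 104 member comparisons.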
